A study of Arabidopsis thaliana with 6 samples.

Results

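The 4 genes described here, STZ, GRX480, PUB24 and AT3G02840, belong to the early answer of Arabidopsis thaliana to elicitors and to its immune system. They were chosen from the measured difference between sorted root cells and whole roots, as genes of elicitor and immunity lists, so that difference is given below as a description with no test. Each is read by 1 probe set that the platform annotation pairs with that gene alone, among 13286 genes with such a probe set. The study compared root protoplasts that had passed through a fluorescence-activated cell sorter, with every cell kept (3 arrays), with intact whole roots (3 arrays). All roots came from Columbia seedlings, 6 days after germination. They had spent 24 hours on Murashige and Skoog medium in which 0.3 mM ferrozine, an iron chelator, stood in for ferrous sulfate, so both groups were short of iron and neither was a fully fed control. The stated purpose was to learn how much the isolation of cells alters transcripts of genes that respond to iron shortage.

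In pattern-triggered immunity, receptors at the cell surface bind microbial molecules or fragments of the plant's own wall. Calcium, reactive oxygen and mitogen-activated protein kinases then carry the signal to the nucleus, where a first wave of genes is switched on. STZ, also called ZAT10, is a C2H2 zinc-finger repressor of that wave and of many abiotic stress responses. GRX480, also called ROXY19, is a CC-type glutaredoxin that binds TGA transcription factors and dampens jasmonate-responsive genes when salicylic acid is present. PUB24 is a U-box ubiquitin ligase that, with its close relatives PUB22 and PUB23, restrains immune signalling. AT3G02840 codes for an armadillo-repeat protein of an early elicitor-induced family, without an assigned function here.

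Values are MAS5 signal intensities, 1 per probe set and array, scaled so that the trimmed mean of every array is about 250.02. The labels do not say whether replicates came from separate cultures, so the spread between them may be technical, and 3 arrays a group limit the precision. Across 13647 probe sets, log2 values correlated at 0.876 to 0.948 among sorted-cell arrays, 0.966 to 0.974 among whole-root arrays and 0.514 to 0.666 between the groups (genes are not independent replicates). Hybridisation controls, bacterial and phage transcripts that Affymetrix protocols add in fixed amounts, averaged 2310, 1413 and 853 in sorted cells and 436, 467 and 476 in whole roots (geometric means of 18 probe sets). They stood 1.61 higher on the log2 scale in sorted cells, all 18 without overlap. For actin, the 3′ probe set exceeded the 5′ one, a sign of RNA integrity and amplification length, by log2 values of 5.53, 4.09 and 3.37 in sorted cells and 1.60, 1.61 and 1.85 in whole roots. Root hair markers EXPA7 and EXPA18 fell in sorted cells, and AT1G62500, a cortex entry, was too dim to test. The summed intensity of these 3 markers, of 17 listed, was 318 to 500 in sorted cells and 2500 to 3192 in whole roots. That of the 2 green tissue markers with a probe set, RCA and LHCB4.1, was 68.2 to 141 in sorted cells and 503 to 569 in whole roots. In such bulk samples fewer cells of a type and less RNA per cell cannot be told apart, and the part of these shifts in the results below was not tested.

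STZ read 2826, 1733 and 2624 on the sorted-cell arrays, against 28.2, 38.9 and 29.9 on the whole-root arrays. The means were 2394 ± 582 in sorted cells and 32.4 ± 5.74 in whole roots (SD, n = 3 each), a log2 difference of 6.19 or 73.1-fold. The groups did not overlap and both were tight: the highest array stood 1.63-fold over the lowest in sorted cells and 1.38-fold in whole roots. Of the 4 genes, STZ had the smallest spread among the sorted-cell arrays.

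GRX480 read 5272, 1315 and 1478 in sorted cells, against 84.9, 99.2 and 67.6 in whole roots. The log2 difference was 4.71, or 26.2-fold, without overlap. Whole-root arrays lay within 1.47-fold of each other, whereas sorted-cell replicate 1 stood 4.01-fold above replicate 2. Without that replicate the log2 difference was 4.07.

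AT3G02840 read 2329, 424 and 765 in sorted cells, against 9.56, 16.6 and 1.3005 in whole roots. The groups did not overlap, with all sorted-cell arrays above the background level, the brightest of 27 probe sets for bacterial genes on the same array, and 1 of 3 whole-root arrays above it. That level was 57.4, 36.3 and 14.3 on the sorted-cell arrays and 16.8, 11.8 and 10.4 on the whole-root arrays. The log2 difference of 7.27 therefore has an imprecise size: it was 6.17 without whole-root replicate 3 and 8.01 without whole-root replicate 2. With every intensity raised at least to the background level, it was 6.00, or 63.9-fold.

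PUB24 differed from the other members. It read 339, 101 and 147 in sorted cells, against 88.7, 157 and 126 in whole roots, all well above the background level. Means were 196 ± 127 in sorted cells and 124 ± 34.4 in whole roots (SD, n = 3 each), and the groups overlapped, since sorted-cell replicate 2 lay below 2 of 3 whole-root arrays. The log2 difference was 0.51, and 0.012 without sorted-cell replicate 1. Of the 13647 probe sets tested, 28.8% had all sorted-cell arrays above all whole-root arrays, as had 3 of the 4 members, a count fixed in part by how they were chosen.

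**Figure D1:**
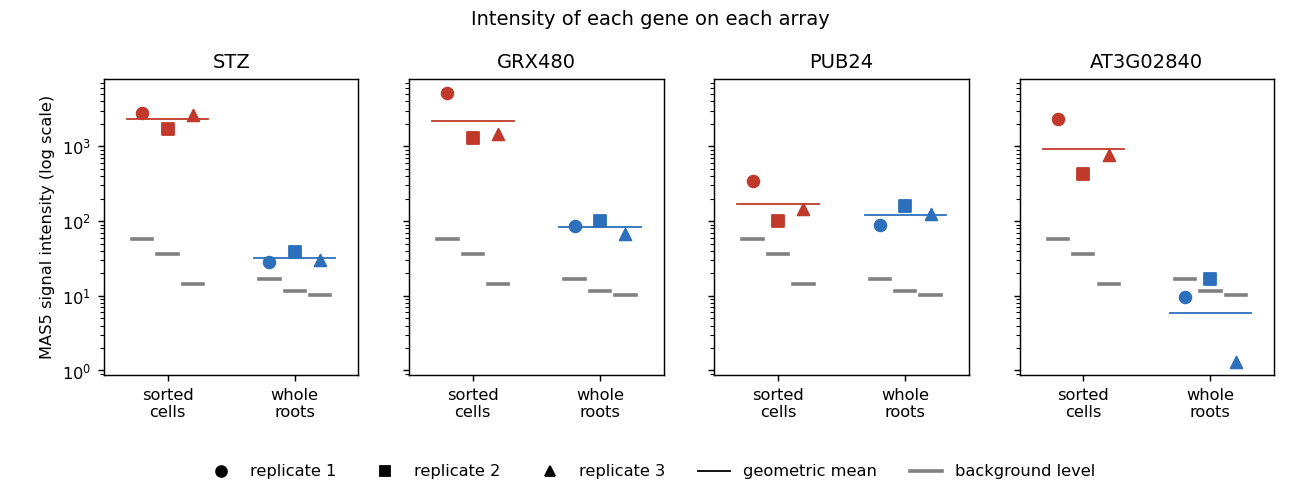
MAS5 signal intensity (log axis) of STZ, GRX480, PUB24 and AT3G02840 on each of 3 sorted-cell and 3 whole-root arrays, with the geometric mean of each group and the background level of each array. STZ, GRX480 and AT3G02840 stand higher in sorted cells without overlap, PUB24 overlaps between the groups, and only 1 whole-root array of AT3G02840 lies above background.

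All 4 genes read highest on sorted-cell replicate 1. The excess of that array over the mean of the other two, on the log2 scale, was 2.03 for AT3G02840, 1.92 for GRX480, 1.48 for PUB24 and 0.41 for STZ. Over all 13647 tested probe sets the median excess was 0.01, with 10th and 90th percentiles of -0.87 and 0.94, and this array was the highest of the 3 for 39.6% of them. Among the 3377 probe sets called higher in sorted cells the median excess was 0.23 and the 90th percentile 1.16, and it was the highest for 53.0%. GRX480, PUB24 and AT3G02840 thus lay above both 90th percentiles on this array, and STZ below them. The same array had the highest hybridisation controls, 1.07 above the mean of the other sorted-cell arrays on the log2 scale, and the widest gap between the ends of actin; their part in the excess was not tested.

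Scaling of the arrays bears on PUB24 most. When each array was scaled to its hybridisation controls, an alternative chosen after seeing the data, the median log2 difference of all tested probe sets moved to -1.78, against -0.16 as deposited. PUB24 then stood at -1.11, lower in sorted cells without overlap, and STZ, GRX480 and AT3G02840 at 4.58, 3.10 and 5.65. Relative to the median of all tested probe sets, PUB24 was 0.67 higher on the log2 scale under either scaling. That equality is fixed by arithmetic, since a constant per array shifts every log2 difference alike. The labels do not state how much labelled RNA was hybridised, so neither scaling can be preferred here. Quantile normalization and median centring kept all 4 members higher in sorted cells, PUB24 at 0.60 and 0.46.

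**Figure D2:**
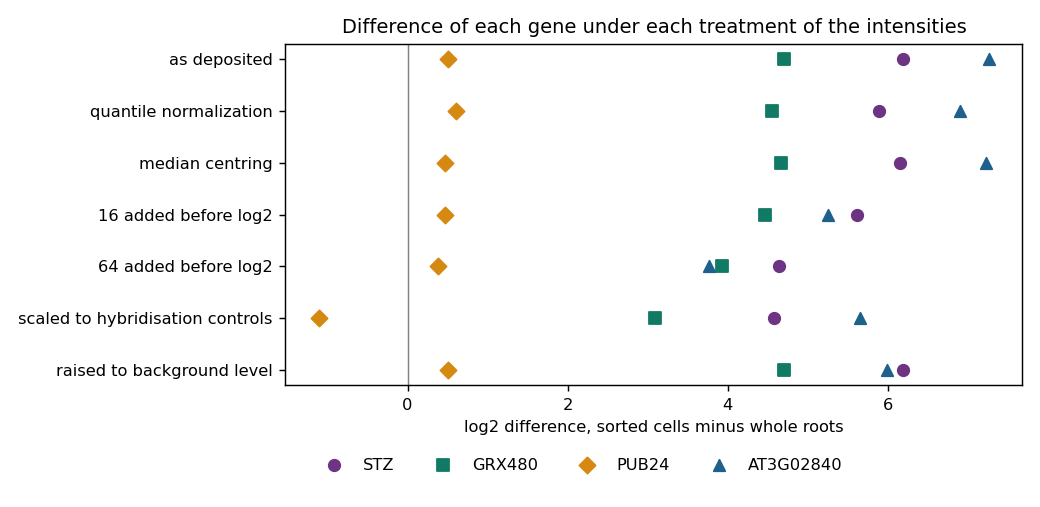
Log2 difference (sorted cells minus whole roots) of the 4 genes with the intensities as deposited and under 6 other treatments of them. AT3G02840, STZ and GRX480 stay above 3 throughout, and PUB24 moves from 0.51 as deposited to -1.11 when arrays are scaled to hybridisation controls.

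The close relatives of PUB24 could be tested, since they were not chosen here by their values, though the lists were drawn up with results of these data known. Calls are by limma over all 13647 probe sets at a Benjamini-Hochberg adjusted p under 0.05, which called 24.7% higher and 30.7% lower in sorted cells. PUB22 read 2319, 708 and 1023 in sorted cells, against 196, 255 and 334 in whole roots. It rose by 2.22 on the log2 scale (SE 0.41, limma adjusted p = 0.00176). PUB23 read 1486, 1064 and 1471 in sorted cells, against 313, 485 and 245 in whole roots, and rose by 1.99 (SE 0.28, limma adjusted p = 0.000429). Neither pair of groups overlapped. With arrays scaled to hybridisation controls PUB22 stood at 0.60 and PUB23 at 0.38, and neither was called (limma adjusted p = 0.346 and 0.567, the highest over all alternatives, which began at 0.000421 and 0.000273).

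Multiplying an array by a constant cancels in a ratio within the array, so the 3 ligases were also set against each other there. Such a ratio has no meaning as a ratio of transcript levels, only its change between groups has. PUB22 over PUB24 was 6.83, 7.01 and 6.96 in sorted cells, against 2.21, 1.62 and 2.65 in whole roots. The SD of its log2 values over the sorted-cell arrays was 0.019, although PUB24 itself ranged 3.36-fold among them. PUB23 over PUB24 was 4.38, 10.5 and 10.02 in sorted cells, against 3.53, 3.08 and 1.94 in whole roots. Both ratios were higher in sorted cells without overlap, by 3.27-fold for PUB22 and 2.80-fold for PUB23. Since PUB24 was chosen from the same contrast, these changes are a description with no test. STZ over GRX480 was likewise higher, at 0.536, 1.32 and 1.78 in sorted cells and 0.332, 0.392 and 0.443 in whole roots.

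**Figure D3:**
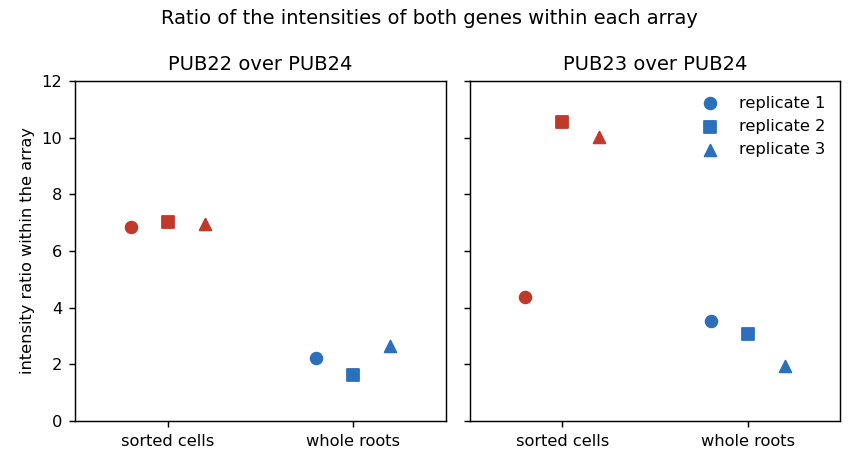
Ratio of PUB22 to PUB24 intensity and of PUB23 to PUB24 intensity within each array, for 3 sorted-cell and 3 whole-root arrays. PUB22 over PUB24 lies at 6.83 to 7.01 in sorted cells and 1.62 to 2.65 in whole roots, and PUB23 over PUB24 at 4.38 to 10.5 in sorted cells and 1.94 to 3.53 in whole roots.

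Over the whole list of U-box ligases with armadillo repeats, 15 of 30 entries had a probe set and 12 were tested. Their median log2 difference was 0.91. Both it and the count of genes that rose include 3 genes, named below, that passed the filter through sorted-cell readings alone. By limma 7 rose and 2 fell, beside 24.7% and 30.7% of all tested probe sets called higher and lower. With arrays scaled to hybridisation controls 1 rose and 5 fell, beside 4.09% and 70.6% called higher and lower under that scaling. PUB19, a ligase known from drought and abscisic acid responses, rose most, at 1787, 558 and 1261 in sorted cells against 138, 133 and 67.2 in whole roots. Its log2 difference was 3.33 (SE 0.44, limma adjusted p = 0.000288), and it was the gene still called higher under hybridisation control scaling, at 1.72. AT5G09800 rose by 1.82, and PUB25 and PUB26, a closely related pair named after their values were seen, rose by 1.35 and 1.18. The whole-root means of AT5G09800, PUB25 and PUB26 lay below the filter level for dim probe sets. They were tested because of their sorted-cell readings, so the filter in part fixed the median of 0.91 and the count of 7. AT3G54790 (-1.31) and AT3G49810 (-0.87) fell, and these were also named after their values were seen. Among the 3 that did not pass were AT1G23030, at -0.57, and AT1G67530, at -0.40, though AT1G23030 passed without sorted-cell replicate 3 (-0.79). Of the partners of these ligases, RPN12a, a proteasome lid subunit that PUB22 and PUB23 bind, was the single entry of 4 with a probe set, at 0.34 and not called, and it was called higher at 0.64 without sorted-cell replicate 1.

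**Figure D4:**
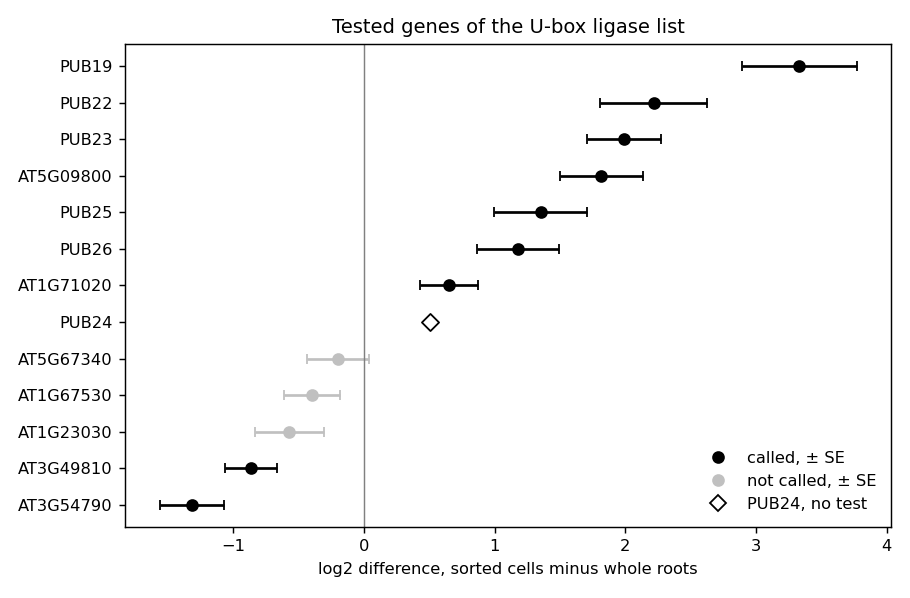
Log2 difference (sorted cells minus whole roots, ± SE of the limma fit) of the 12 tested genes of the U-box ligase list, with PUB24 as an open diamond without test. PUB24, at 0.51, stands below all 7 genes called higher, of which PUB19 (3.33), PUB22 (2.22) and PUB23 (1.99) lead.

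Among C2H2 zinc-finger genes related to STZ, 6 of 15 entries had a probe set and 4 were tested. Their median log2 difference was 1.94. As deposited, 3 rose and AT2G28710 (-0.14) was not called, beside 24.7% of all tested probe sets called higher. Under hybridisation control scaling 1 rose and 1 fell, beside 4.09% and 70.6% called higher and lower. AT3G53600 read 967, 303 and 860 in sorted cells, against 7.38, 7.86 and 10.9 in whole roots. It rose by 6.20 on the log2 scale (SE 0.45, limma adjusted p = 1.69e-05) and by 4.59 under hybridisation control scaling. Its whole-root mean of 8.70 lay below the filter level for dim probe sets, so it was tested because of its sorted-cell readings. The median of 1.94 and the counts of genes that rose include it, so the filter in part fixed them. Readings of AT3G53600 exceeded background on 1 whole-root array, so the size of its difference is imprecise. AT5G03510 rose by 2.62, and by 1.00 without a call under that scaling. AT2G28200 rose by 1.25 and stood at -0.36 under it. The other entries with a probe set were dim, at most 38.2 in sorted cells and 23.0 in whole roots.

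The CC-type glutaredoxins related to GRX480 gave little signal. Of 20 entries 16 had a probe set, of which 7 lay at or under the background level on all 6 arrays, and 15 were left out by the filter on dim probe sets. AT4G33040 alone was tested, at 247, 106 and 117.4 in sorted cells against 34.0, 44.2 and 26.2 in whole roots. It rose by 2.09 (SE 0.39, limma adjusted p = 0.0018), and stood at 0.48 without a call under hybridisation control scaling. The whole-root mean of AT4G33040, 34.8, lay below the filter level, so it was tested because of its sorted-cell readings. With no filter, limma also called AT3G62960, AT4G15660, AT5G11930 and AT3G62930 higher, named after their values were seen. That setting called 4014 of all 22746 probe sets higher. AT3G62960 averaged 49.7 ± 26.8 in sorted cells and 1.41 ± 0.347 in whole roots (SD, n = 3 each). Each of these 4 exceeded the background level on 2 sorted-cell arrays, where that level is itself higher than on the whole-root arrays, and AT3G62930 exceeded it on 1 whole-root array. In all, 7 of the 15 untested probe sets read higher on every sorted-cell array than on every whole-root array. Of these, AT4G15680, AT4G15700 and AT2G30540 did not exceed background on any array. AT2G47880 went the other way without overlap, at 8.81, 7.88 and 2.67 in sorted cells against 33.7, 23.8 and 9.87 in whole roots. It exceeded background on 2 whole-root arrays and on 0 sorted-cell arrays. The share among all dim probe sets was not counted, so the count of 7 is not a result about the family.

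Few receptor and signalling genes of the immune pathway could be tested. Of 22 receptor entries 4 had a probe set and 3 were tested. Of these 2 fell and 1 rose, beside 30.7% and 24.7% of all tested probe sets. With arrays scaled to hybridisation controls 2 fell and 0 rose, beside 70.6% and 4.09% called lower and higher under that scaling. FER, the FERONIA receptor kinase that monitors the wall and scaffolds immune receptors, read 411, 525 and 977 in sorted cells, against 2233, 2033 and 1932 in whole roots. It fell by 1.79 on the log2 scale (SE 0.31, limma adjusted p = 0.00117). AT4G08850 fell by 1.18. SD1-29, a lectin-type receptor kinase of bacterial fatty acid perception, rose by 1.502, and stood at -0.11 under hybridisation control scaling. EFR, the receptor of bacterial elongation factor Tu, lay at or under the background level on every array.

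BIK1, the kinase that relays signals from several of these receptors, was the tested entry of 21 signalling genes, 2 of which had a probe set. It read 174, 143 and 218 in sorted cells, against 246, 430 and 443 in whole roots. It fell by 1.04 (SE 0.28, limma adjusted p = 0.0117). Leaving out whole-root replicate 2 or 3 ended that call, at limma adjusted p = 0.0519 and 0.0535, where the alternatives spanned 2.38e-06 to 0.0535. Of the CAMTA and CBF list, genes of calmodulin-binding activators and of cold response, 3 of 9 entries were tested and 2 fell, beside the same 30.7%. All 3 are CAMTA genes, and no CBF gene had a probe set of its own. AT3G16940 fell by 1.199. AT1G67310 fell by 0.86 and lost its call in 5 alternatives, and AT4G16150 (-0.83) did not pass but was called lower in 7.

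The 3 tested transcription factor genes of the early elicitor list, of 20 entries, were WRKY22, WRKY53 and WRKY6. All rose, beside 24.7% of all tested probe sets called higher. Under hybridisation control scaling WRKY22 and WRKY53 rose, beside 4.09% called higher, and WRKY6 stood at -0.59. The whole-root means of WRKY22 (20.6) and WRKY53 (32.7) lie below the filter level of 53.9, so both were tested because of their sorted-cell readings. The filter thus in part fixed these counts. WRKY6, with a whole-root mean of 389, was not admitted that way and rose by 1.03. WRKY22, a target of the immune kinase cascade, read 398, 290 and 443 in sorted cells, against 15.9, 29.0 and 17.1 in whole roots. WRKY53, a regulator of defence and senescence, read 823, 294 and 339 in sorted cells, against 25.6, 45.5 and 27.02 in whole roots. Their log2 differences were 4.22 (SE 0.31, limma adjusted p = 1.93e-05) for WRKY22 and 3.78 (SE 0.41, limma adjusted p = 0.000104) for WRKY53, which like GRX480 read highest on sorted-cell replicate 1. AT1G14550, the single elicitor target of 22 with a probe set, read 266, 36.8 and 125 in sorted cells and 44.9, 81.1 and 27.2 in whole roots. Its groups overlapped, and the log2 difference of 1.21 did not pass (limma adjusted p = 0.156). Leaving out sorted-cell replicate 2 made it a call, at 1.98 and a limma adjusted p of 0.0129, where the alternatives spanned 0.0129 to 0.468.

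The salicylic acid and TGA list, the setting in which GRX480 acts, had 2 of 28 entries with a probe set. SAG101, a partner of the immune regulator EDS1, read 232, 106 and 121 in sorted cells, against 36.5, 35.9 and 31.6 in whole roots. It rose by 2.06 (SE 0.34, limma adjusted p = 0.00107), and stood at 0.44 without a call under hybridisation control scaling. The whole-root mean of SAG101, 34.6, lay below the filter level, so it was tested because of its sorted-cell readings. PDF1.2, the defensin gene that GRX480 is known to repress when overproduced, lay at or under the background level on all 6 arrays, at 10.2 ± 6.10 in sorted cells and 4.28 ± 2.70 in whole roots (SD, n = 3 each), so no direction can be given.

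The likeness of other genes to each member was measured as the root mean square difference of log2 values over the 6 arrays, after each gene was centred on its own mean, with 7304 tested probe sets of a single gene compared. Since these differences follow the group contrast that chose the members, they are a description. Closest to STZ were AT4G29780 (0.32), the zinc-finger entry AT3G53600 (0.40) and AT4G26880 (0.43). Closest to GRX480 were AT4G27280 (0.27), CHX20, a cation/H+ exchanger gene (0.32), and AT2G18210 (0.32). AT4G27280 read 6082, 2207 and 2324 in sorted cells, against 102, 162 and 133 in whole roots, with the same single high sorted-cell array as GRX480.

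Closest to PUB24 were AT3G59080 (0.15), AT2G19270 (0.16) and AT5G58750 (0.16), each with sorted-cell replicate 1 highest and overlapping groups. Within 0.5 on this scale lay 613 probe sets for PUB24, 31 for GRX480, 10 for STZ and none for AT3G02840. The distances of AT3G02840 rest in part on 2 whole-root readings that did not exceed background, so its count is not comparable with the others. The nearest to it were AT2G47950 (0.90), AT4G18450 (0.91) and AT1G76640, the calmodulin-like gene CML39 (0.95), none of which exceeded background on more than 1 whole-root array.

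**Figure D5:**
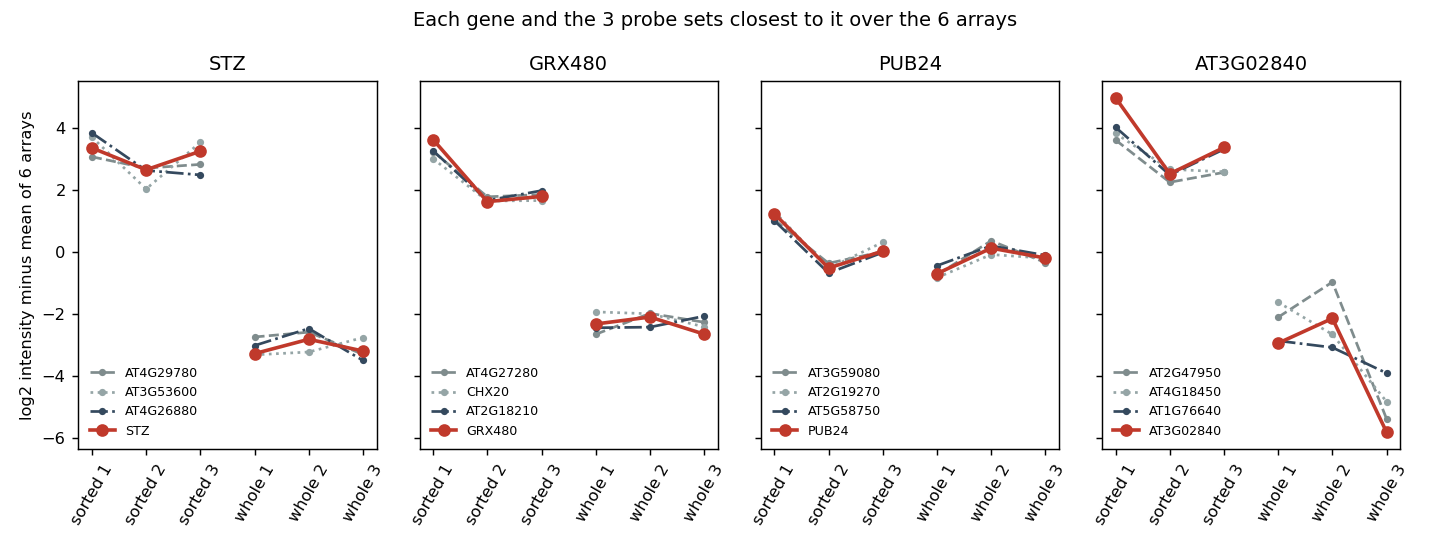
Log2 intensity minus the gene's mean over 6 arrays, for each of the 4 genes (thick line) and the 3 probe sets closest to it, on the sorted-cell and whole-root arrays. The curves of PUB24 cross 0 in sorted cells, where replicate 1 is highest, and overlap between the groups, while those of STZ, GRX480 and AT3G02840 lie above 0 in sorted cells and below it in whole roots.

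The gene structure of the 4 members was not used to choose them. Each has 1 transcript in RefSeq (assembly TAIR10.1), as have 59.1% of 12293 protein-coding genes with a probe set of their own. Gene lengths were 1303 bases for STZ, 823 for GRX480, 1631 for PUB24 and 1289 for AT3G02840, all below the median of 2107 bases over those genes.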

How the data were processed

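The deposited values are MAS5 signal intensities on a linear scale, made by the authors with MAS5 per the submitters' processing notes, for 22810 probe sets on 6 arrays; its version and scaling target and any detection calls: not given in the sources used here. Per the labels' protocols, RNA was amplified in 2 cycles, which favours 3′ ends. Intensities were used as deposited. Of the probe sets, 13513 pair with 1 gene in the platform annotation and 13436 were matched to RefSeq (TAIR10.1), used for names, gene order and lengths.

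After removal of 64 controls and the dimmest 40% by mean intensity over all arrays (53.9 or less), 13647 probe sets were fitted on the log2 scale with limma 3.58.1 in R 4.3.3 (lmFit, eBayes with trend; sorted cells minus whole roots, Benjamini-Hochberg adjusted p under 0.05). The script was tested on simulated data. All 4 members passed the filter. STZ and AT3G02840 passed through their sorted-cell values alone, as their whole-root means lie below it. Of the listed genes, the same held for AT3G53600, AT4G33040, AT5G09800, PUB25, PUB26, SAG101, AT1G14550, WRKY22 and WRKY53. RCA and AT4G16150, and the neighbouring genes AT3G11850 and AT3G02820, passed through their whole-root values alone. No p-value is given for members. Tables came from Python 3.11.15 (pandas 2.3.3, numpy 2.4.6) and plots from matplotlib 3.10.9.

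The members and the 12 gene lists (213 entries, 58 with a probe set, 34 tested) were chosen with earlier results of these data known. Named were, from each list, at most 4 called genes, by size of log2 difference, and at most 2 uncalled ones, by mean log2 value, and the 3 closest probe sets for each member; the text prints part of them. Scaling to hybridisation controls, the background level and the within-array ratios and neighbouring genes were added after seeing the data. Alternatives were quantile normalization, median centring, 16 or 64 added before the log, no filter or a 60% filter, no variance trend, the replicate number as a block, and each array left out in turn.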

Additional observations from a re-analysis of the deposited data

How the results depend on the processing

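STZ, GRX480 and AT3G02840 stood higher in sorted cells in every alternative. With 16 and 64 added before the log, STZ stood at 5.61 and 4.64 and AT3G02840 at 5.26 and 3.76. Scaling to hybridisation controls, which as built lowers every log2 difference by 1.61, gave 4.58 for STZ, 3.10 for GRX480 and -1.11 for PUB24, a reversal. It split the calls into 558 higher (4.09% of tested probe sets) and 9640 lower (70.6%), against 3377 and 4187 as deposited. Under it the lists held these calls: C2H2 zinc fingers 1 higher and 1 lower, U-box ligases 1 higher and 5 lower, ligase partners 1 lower, and glutaredoxins, receptors and salicylic acid genes 0 higher. It also reversed AT2G28200 (-0.36), SD1-29 (-0.11), AT1G14550 (-0.40), WRKY6 (-0.59) and RPN12a (-1.28). With no filter 5 glutaredoxins were called higher, beside 4014 of all 22746 probe sets. With the dimmest 60% left out, 0 glutaredoxins, 4 U-box ligases, 0 receptors and 0 salicylic acid genes were, as fewer were tested. That stricter filter left 9098 probe sets, of which 2270 were called higher. Leaving out 1 array at a time gave 0 to 1 signalling genes lower, 0 to 1 elicitor targets higher and 1 to 3 CAMTA genes lower. It also gave 0 to 1 ligase partners higher, and -0.59 to 0.12 for AT2G28710. The cause of these shifts was not tested beyond what is stated.

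Replicate numbers are shared between the groups, but same-numbered arrays did not deviate together (correlations -0.29, -0.16 and -0.04), so they are not treated as pairs. With the replicate block 6815 probe sets were called, against 7564 without it.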

Other observations

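The genes on either side of the members gave a view of the same stretches of chromosome. Of the 40 protein-coding genes within 5 places of a member in the reference order, 14 had a probe set of their own and 12 were tested. By limma 6 of these rose, 4 fell and 2 did not pass, against 24.7% and 30.7% of all tested probe sets called higher and lower. Their log2 differences ran from -1.63 to 1.44, with a median of 0.67. The members were chosen from this same contrast, so the sizes of their differences are not set against these. Beside STZ, SAT32 fell to 202 in sorted cells, against 422 in whole roots (means, n = 3 each), a log2 difference of -1.09. Beside GRX480, AT1G28510 rose by 1.44. Next to PUB24, AT3G11850 fell by 1.09 and AT3G11830, on the other side, stood at -0.67 without passing. Near AT3G02840, VTC4, a gene of ascorbate synthesis, rose by 0.86 and AT3G02820 fell by 1.63. Scaling to hybridisation controls lowers every log2 difference by 1.61, which puts all 12 below 0.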
